A study of Rattus norvegicus with 3 samples.

Results

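Collagen chain genes are described here across 3 arrays of rat osteoblast-like cells, as the genes whose name on the array reads Col, a type number, the letter a and a chain number. The rule by name used no measured value, though it was set with earlier results of these data known. It gave 41 genes of the 26115 gene names on the array, which covered 26 collagen types with 58 probes and 97 spots per array. Of the 41 genes, 27 had 1 probe and 14 had several. The study asked how inorganic polyphosphate, a chain of linked phosphate residues, acts on gene expression in ROS17/2.8 cells, a clonal line from a rat osteosarcoma with osteoblast properties. All cells were grown to confluence and kept in αMEM with 10% fetal bovine serum, L-ascorbate phosphate and 1 mM β-glycerophosphate, a mixture that promotes mineralization. The control received no polyphosphate, the low dose was 0.01 mg/ml and the high dose was 1 mg/ml, and the treated cells were exposed for 24 h. For the control no time is stated. Each group held 1 array, so differences have no replicate check, no p-value is given, and the number of arrays limits the precision.

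Collagens are extracellular proteins in which chains wind around each other into a helix that needs glycine at every turn of the repeat. Fibril-forming types build the load-bearing cords of bone, skin and tendon, and in bone type I collagen, assembled from Col1a1 and Col1a2 chains, is the organic scaffold on which mineral is laid down. Other families form the sheets of basement membranes, the beaded filaments around cells, bridges on the surface of fibrils, or proteins anchored in the cell membrane. Ascorbate is a cofactor of the hydroxylases that stabilise the helix, which is why osteoblast cultures receive it.

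A collagen chain reads on these arrays as a probe of 60 bases, and the place of the probe decides what it sees. Of the 58 probes, 2 held a glycine codon at every turn of the collagen repeat over the whole probe, and both belonged to basement membrane type IV. They are shown because they were the only type IV probes well above background. The capitals mark their 6 glycine codons each. The Col4a1 probe lies at chr16:83146135-83146194 on the plus strand and the Col4a6 probe at chrX:37482127-37482186 on the plus strand (rn4, the build of the array's coordinates).
Col4a1: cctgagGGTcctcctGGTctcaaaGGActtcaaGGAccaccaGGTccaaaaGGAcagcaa
Col4a6: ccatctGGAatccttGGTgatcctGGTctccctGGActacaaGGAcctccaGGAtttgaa

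A further probe shows the coding end of a fibrillar chain. This Col1a1 probe reads 19 codons without a stop and then ends on a stop codon, given in capitals. It is shown because Col1a1 lay below the control at the high dose by more than 2 spot errors, defined below, and of its probes this one had the smaller difference. It lies at chr10:83637956-83638015 on the plus strand (rn4).
Col1a1: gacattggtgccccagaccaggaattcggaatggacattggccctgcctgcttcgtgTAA

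Signals below are the scanner's processed signals in array units, and log2 ratios were taken after each array was scaled to its 75th percentile, which was 926 on the control array, 964 under the low dose and 937 under the high dose. Of 30367 probes, 57.2%, 56.6% and 55.9% were well above background in that order. Each ± is a spot error, which is a standard error derived from how far repeat spots of probes at that level lay apart. It speaks only for the reading of the array, with culture, labelling and biology left out. Over 8 spike-in probes the mean log2 ratio was -0.16 for the high dose against control, -0.16 for the low dose against control and 0.00 for high against low dose. Centring on the spike-ins in place of the 75th percentile raised every ratio against the control, by 0.15 for the high dose and 0.16 for the low dose. That turned the sign of 8 of 20 collagen genes at the high dose (Col1a2, Col5a1, Col5a2, Col5a3, Col4a1, Col4a6, Col6a2 and Col9a1). It turned 9 of 20 at the low dose (Col1a1, Col5a1, Col5a2, Col5a3, Col4a1, Col6a3, Col12a1, Col18a1 and Col19a1) and none between the doses. With all arrays on 1 slide, slide position and group cannot be told apart.

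Of the 41 collagen genes, 19 had a probe well above background on all 3 arrays (46.3%, against 55.1% of all gene names), 19 on none, and 3 on some arrays. The genes seen on all arrays were type I (Col1a1 and Col1a2), the 3 type V chains (Col5a1, Col5a2 and Col5a3), the 3 main type VI chains (Col6a1, Col6a2 and Col6a3), Col4a1, Col4a6, Col8a1, Col9a1, Col12a1, Col15a1, Col16a1, Col17a1, Col18a1, Col19a1 and Col26a1. The genes not well above background on any array included the cartilage chains Col2a1, Col11a1, Col11a2, Col9a2 and Col9a3 and the hypertrophic cartilage chain Col10a1. They also included Col3a1, which codes for a fibrillar chain of soft connective tissue, as well as Col27a1, Col4a2, Col4a3, Col4a4, Col6a4, Col6a6, Col8a2, Col13a1, Col20a1, Col22a1, Col23a1 and Col25a1. The 32 probes that were well above background nowhere had 57 spots, with a median signal of 5.19 on the control array, 5.54 under the low dose and 5.86 under the high dose, and a highest signal of 21.5, 24.9 and 26.9 in that order. A level near background is a statement about these probes, and no probe's level is set against another's.

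**Figure D1:**
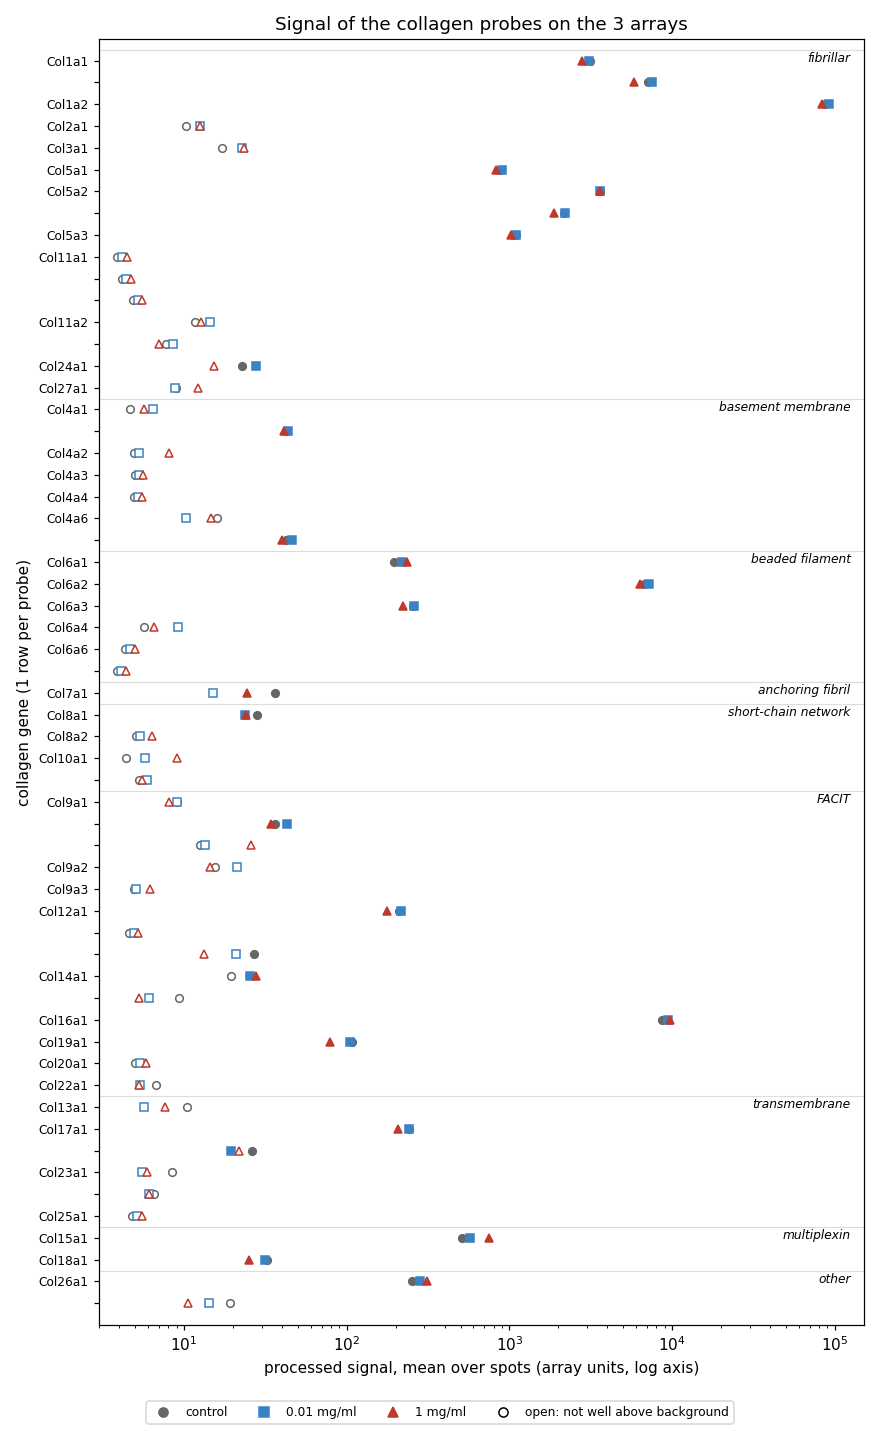
Processed signal (array units, log axis) of each of the 58 collagen probes, 1 row per probe, averaged over its spots; circles are the control, squares the low dose and triangles the high dose, filled where the probe was well above background on that array. The 3 symbols of a row nearly coincide for most bright probes, and the probes of Col2a1, Col3a1 and Col10a1 are open on all 3 arrays.

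The fibrillar chains of type I and type V were all slightly below the control at the high dose and close to it at the low dose. Col1a1, the chain present in excess in bone collagen, was read by probes at 2 places. The coding-end probe printed above had 1 spot, with a signal of 3108 on the control array, 3094 under the low dose and 2786 under the high dose. The other Col1a1 probe (chr10:83639260-83639319, plus strand, rn4) had 2 spots, which read 6636 and 7494 on the control array, 7500.05 and 7625 under the low dose and 5887 and 5843 under the high dose. In both probes the high dose array was the lowest, and its spots did not overlap those of either other array. The log2 ratio of Col1a1 was -0.23 ± 0.05 for the high dose against control, a fold of 0.854, and -0.01 ± 0.05 for the low dose against control. The probes gave -0.17 and -0.28 at the high dose, and with centring on the spike-ins the gene stood at -0.07. Under normexp, another background correction, the ratio was almost the same, -0.22, but the spot error was 0.13 in place of 0.05. The Col1a1 ratio was then within 2 spot errors through the larger spot error, and of the calls at the high dose only that of Col15a1 was kept.

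Col1a2 codes for the partner chain of type I collagen. Its 2 spots (chr4:29428206-29428265, plus strand, rn4) gave 88801 and 84807 on the control array, 92903 and 91715 under the low dose and 84159 and 81660 under the high dose, and none was saturated. The spots at the high dose lay below all others, and those at the low dose above all others, before scaling. The log2 ratio was -0.08 ± 0.05 for the high dose against control and 0.03 ± 0.05 for the low dose against control, both within 2 spot errors. The ratio at the high dose turned to 0.07 with centring on the spike-ins.

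The type V chains regulate the diameter of type I fibrils by growing into them. Col5a2 was read by a probe with 2 spots, which gave 3658 and 3540.2 on the control array, 3593 and 3615 under the low dose and 3680 and 3546 under the high dose, and here the arrays overlapped. A Col5a2 probe at chr9:44374155-44374214 (minus strand, rn4) with 1 spot read 2176 on the control array, 2191 under the low dose and 1889.55 under the high dose. The log2 ratio of the gene was -0.11 ± 0.05 for the high dose against control, from -0.01 and -0.22 of the probes, so that the difference rested on the probe with 1 spot. It turned to 0.04 with centring on the spike-ins. At the low dose it was -0.05 ± 0.05.

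Col5a1 had spots of 863 and 881 on the control array, 838 and 953 under the low dose and 812 and 847 under the high dose. Its log2 ratio was -0.09 ± 0.07 for the high dose against control and -0.02 ± 0.07 for the low dose against control. Col5a3 had spots of 1085 and 1123 on the control array, 1123 and 1085 under the low dose and 1007 and 1033 under the high dose. The high dose spots of both genes lay below those of the control, but the log2 ratio of Col5a3, -0.13 ± 0.07, stayed within 2 spot errors, and its low dose ratio was -0.06 ± 0.07. With centring on the spike-ins the high dose ratios were 0.07 for Col5a1 and 0.02 for Col5a3. Of 11 fibrillar genes, 5 were measured on both arrays at the high dose. All 5 were below 0, with a median log2 ratio of -0.11, and 2 of them, Col1a1 and Col5a2, lay below by more than 2 spot errors. Over all genes measured in this comparison, 52.1% were below 0 and 12.8% lay below by more than 2 spot errors.

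The remaining fibrillar genes stayed near background. Col24a1, a minor fibrillar gene, had 1 spot of 22.6 on the control array, 27.8 under the low dose and 15.2 under the high dose, and the last was not well above background. Its log2 ratio for the low dose against control was 0.24 ± 0.36, and the fold between low and high dose was nominally at least 1.205-fold, with the high dose lower. Col3a1 had spots of 17.2 and 17.3 on the control array, 24.9 and 20.2 under the low dose and 23.5 and 23.1 under the high dose, none of them well above background.

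**Figure D2:**
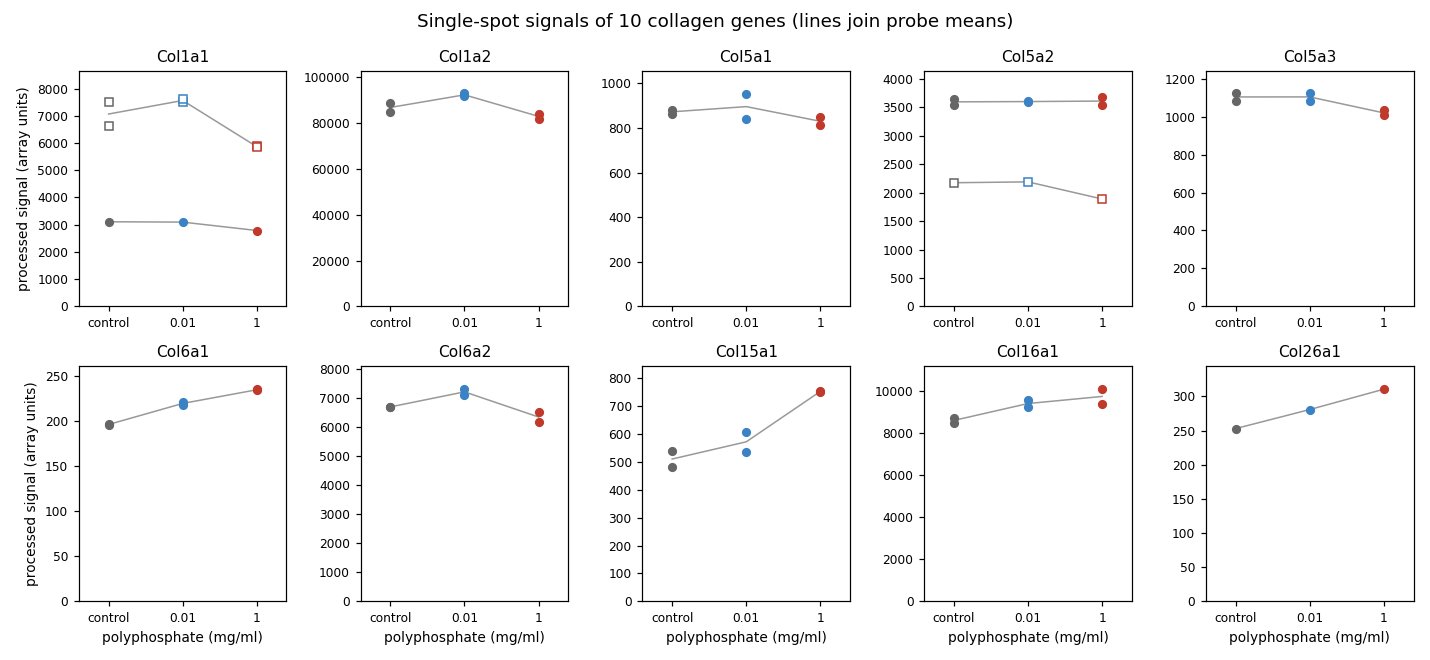
Processed signal (array units, axis from 0) of every spot of 10 collagen genes on the control array, at 0.01 mg/ml and at 1 mg/ml; filled and open symbols are different probes of a gene, and lines join the means. The 2 Col15a1 spots at the high dose sit at 754 and 751, above all spots of the other arrays, while both Col1a1 probes are lowest at the high dose.

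Type IV collagen forms the network of basement membranes from several chains, of which Col4a1 and Col4a2 usually assemble together. The helix probe of Col4a1 printed above read 48.1 and 38.1 on the control array, 44.8 and 41.6 under the low dose and 39.3 and 43.3 under the high dose, with full overlap. A Col4a1 probe at chr16:83157776-83157835 (plus strand, rn4) read no more than 7.41 on any array. The single spot of the Col4a6 helix probe read 42.1 on the control array, 46.3 under the low dose and 40.1 under the high dose, and a Col4a6 probe at chrX:37487009-37487068 was not well above background. Log2 ratios were -0.07 ± 0.24 for Col4a1 and -0.08 ± 0.35 for Col4a6 at the high dose, and -0.04 ± 0.24 and 0.08 ± 0.34 in that order at the low dose. The 2 genes were thus read above background by a helix probe alone, whose match to the repeats of other collagens was not tested. Col4a2, a neighbour of Col4a1 in the GRCr8 gene table of RefSeq, was not well above background, with spots of 4.74 and 5.14 on the control array, 5.04 and 5.51 under the low dose and 5.40 and 10.8 under the high dose.

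Type VI collagen builds beaded filaments from the chains of Col6a1, Col6a2 and Col6a3. Of the 3 genes, 1 was beyond 2 spot errors against the control, Col6a1 at the high dose. Col6a1 (chr20:12337772-12337831, plus strand, rn4) had spots of 196 and 197 on the control array, 218 and 222 under the low dose and 234 and 236 under the high dose, with no overlap between arrays. Its log2 ratio was 0.24 ± 0.11 for the high dose against control, a fold of 1.18, and 0.10 ± 0.11 for the low dose against control. Under normexp the high dose ratio was 0.16 with a spot error of 0.13, within 2 spot errors. Col6a2 (chr20:12464424-12464483, plus strand, rn4), the neighbouring gene in the GRCr8 table, had spots of 6682 and 6688 on the control array, 7305 and 7099.5 under the low dose and 6506 and 6169 under the high dose. There the low dose was highest and the high dose lowest, and the log2 ratio was -0.09 ± 0.06 for the high dose against control, 0.05 ± 0.06 for the low dose against control and -0.14 ± 0.06 for high against low dose. Col6a3, with 1 spot, read 257 on the control array, 259 under the low dose and 222 under the high dose, with a log2 ratio of -0.23 ± 0.14 with the high dose and -0.05 ± 0.13 with the low dose. With centring on the spike-ins Col6a2 turned to 0.06 at the high dose, while Col6a1 and Col6a3 kept their signs at 0.40 and -0.07.

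Col15a1 had the highest log2 ratio of the collagen genes at the high dose. It codes for a multiplexin, a collagen of the basement membrane zone whose end fragment is released as an inhibitor of vessel growth. Its probe (chr5:63930574-63930633, plus strand, rn4) had spots of 538 and 483 on the control array, 607 and 537 under the low dose and 754 and 751 under the high dose. The high dose spots lay above all others, while the low dose and control spots overlapped in part before scaling. The log2 ratio was 0.55 ± 0.07 for the high dose against control, a fold of 1.46, with rank 152 from the top among 14495 genes. It was 0.11 ± 0.08 for the low dose against control and 0.44 ± 0.07 for high against low dose. Under normexp background correction the high dose ratio was 0.47, and with centring on the spike-ins it was 0.70. Col18a1, the other multiplexin and the source of endostatin, had spots of 28.5 and 35.9 on the control array, 37.6 and 25.2 under the low dose and 28.1 and 21.7 under the high dose. The low dose spots overlapped those of both other arrays, while the high dose spots lay below those of the control. Its log2 ratio was -0.39 ± 0.26 with the high dose and -0.11 ± 0.26 with the low dose, both within 2 spot errors. Of its high dose spots only that of 28.1 was well above background.

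Col16a1, a fibril-associated collagen, was bright and also higher at the high dose. Its probe (chr5:149126166-149126225, plus strand, rn4) had spots of 8491 and 8709.6 on the control array, 9587 and 9218 under the low dose and 10097 and 9382 under the high dose. All treated spots lay above the control spots, and the spots of the low and the high dose overlapped. The log2 ratio was 0.16 ± 0.05 for the high dose against control, a fold of 1.12, and 0.07 ± 0.05 for the low dose against control. Col26a1 (chr12:21049507-21049566, plus strand, rn4) had 1 spot in use, which read 253 on the control array, 281 under the low dose and 311 under the high dose. Its log2 ratio was 0.28 ± 0.13 for the high dose against control and 0.09 ± 0.13 for the low dose against control. A Col26a1 probe at chr12:21047207-21047266 ran the other way, with a signal of 19.2 on the control array, 14.2 under the low dose and 10.6 under the high dose, all below the background limit.

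The other fibril-associated genes measured against the control, Col12a1, Col19a1 and Col9a1, were within 2 spot errors of the control at both doses. Col12a1, a fibril-associated collagen of tendon and bone, had 1 spot well above background on all arrays, which read 209 on the control array, 217 under the low dose and 177 under the high dose, with a log2 ratio of -0.25 ± 0.16 with the high dose and 0.00 ± 0.15 with the low dose. A Col12a1 probe at chr8:84644576-84644635 was well above background on the control array alone, at 26.8, with 20.9 under the low dose and 13.3 under the high dose. The Col12a1 probe at chr8:84643405-84643464, with 2 spots, was well above background on no array, with means of 4.60, 4.90 and 5.22 from control to high dose. Col19a1 had 1 spot of 108 on the control array, 104 under the low dose and 78.7 under the high dose, a log2 ratio of -0.47 ± 0.24 with the high dose and -0.10 ± 0.21 with the low dose. Col9a1, its neighbour in the GRCr8 table and a cartilage gene, had 1 of 3 probes well above background, with 36.1 on the control array, 42.8 under the low dose and 34.4 under the high dose. The log2 ratio of Col9a1 was -0.09 ± 0.36 with the high dose and 0.19 ± 0.35 with the low dose. A Col9a1 probe at chr9:22989975-22990034 (plus strand, rn4), not well above background on any array, ran the other way at the high dose, with spots of 12.3 and 12.6 on the control array, 14.6 and 12.3 under the low dose and 24.3 and 26.9 under the high dose.

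Col17a1, a transmembrane collagen of epithelial attachment, was the 1 collagen gene below the control by more than 2 spot errors at the low dose. One of its probes (chr1:253012167-253012198, minus strand, rn4) read 240.05 on the control array, 242 under the low dose and 207 under the high dose from 1 spot. Its coordinates span 32 bases rather than 60, and the reason was not looked up. This was the only Col17a1 probe well above background on all arrays. The Col17a1 probe at chr1:253013827-253013886 had spots of 29.5 and 22.5 on the control array, 30.1 and 8.83 under the low dose and 17.8 and 25.6 under the high dose, so a single dim spot set the low dose apart. The log2 ratio of the gene was -0.38 ± 0.15 at the low dose, from -0.05 and -0.72 of the probes, and -0.23 ± 0.15 at the high dose from the brighter probe alone. The gene was at -0.05 at the low dose where all spots had to be well above background.

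Col7a1, the anchoring fibril gene, and Col8a1, a network collagen gene, were dim. The single Col7a1 spot read 36.3 on the control array, 15.2 under the low dose and 24.4 under the high dose, with a log2 ratio of -0.59 ± 0.36 at the high dose, and it was not well above background at the low dose, where it was nominally at least 1.80-fold lower than the control. Col8a1 had spots of 27.8 and 28.5 on the control array, 21.3 and 26.1 under the low dose and 24.4 and 23.8 under the high dose. Both treated arrays lay below the control there, with log2 ratios of -0.24 ± 0.26 with the high dose and -0.31 ± 0.26 with the low dose, within 2 spot errors. Of the high dose spots of Col8a1 only that of 24.4 was well above background. The brighter Col14a1 probe had spots of 20.8 and 18.1 on the control array, 18.9 and 32.0 under the low dose and 31.0 and 24.4 under the high dose. It was well above background in 1 of 2 spots on each treated array and in none on the control array. The other Col14a1 probe, not well above background on any array, ran the other way, with means of 9.28, 6.09 and 5.30 from control to high dose. Relative to the control the brighter probe was nominally at least 1.38-fold higher under the high dose. It was nominally at least 1.198-fold higher under the low dose, where its spots overlapped those of the control. These bounds, and that of Col24a1 above, are nominal because spots above the lowest well-measured signal can still miss the background flag. They also leave out the spot error, which in the measured log2 ratios was 0.36 for Col7a1 and Col24a1 and 0.26 for Col14a1.

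**Figure D3:**
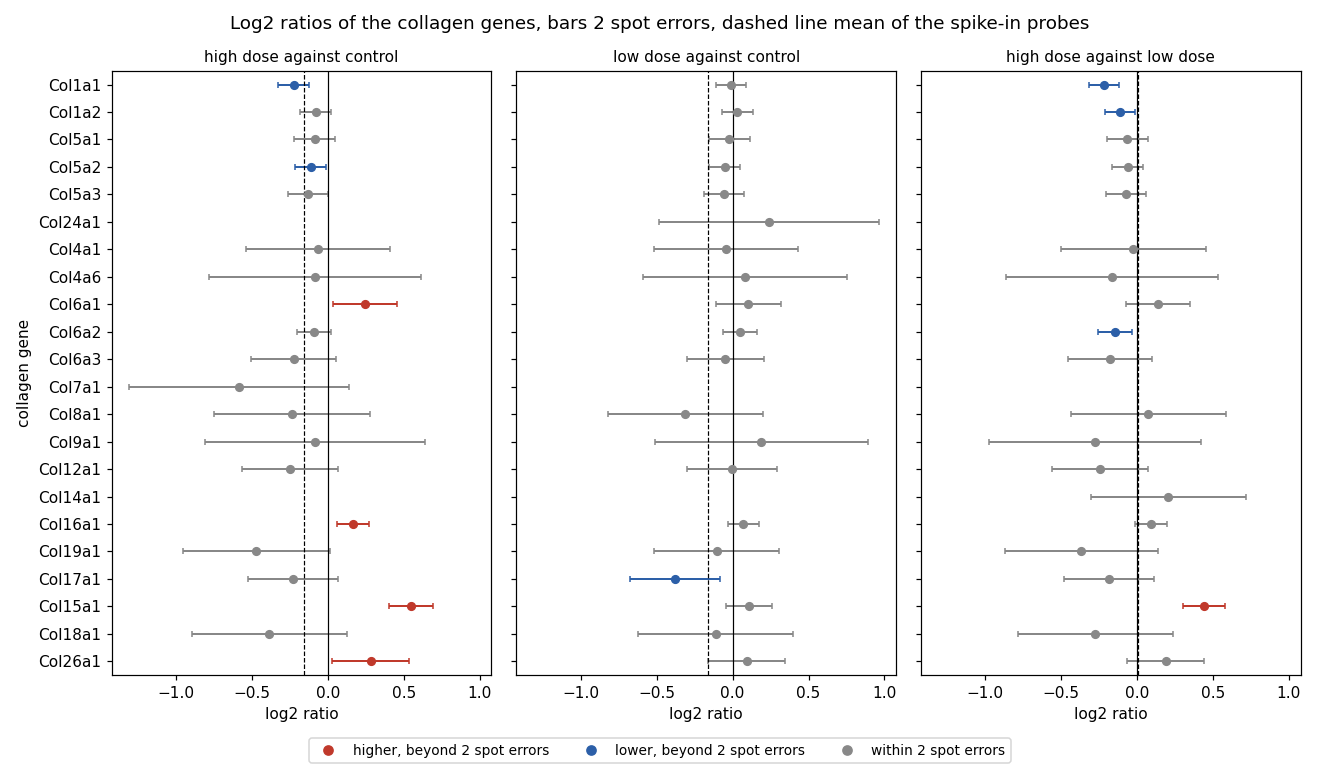
Log2 ratio (horizontal axis) of each collagen gene measured on both arrays of a comparison, with bars of 2 spot errors, for the high dose against control, the low dose against control and the high against the low dose; the dashed line is the mean of the spike-in probes. Col15a1 stands at 0.55 and Col1a1 at -0.23 for the high dose against control, and most bars of the dim genes cross 0.

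At the high dose, 20 collagen genes were measured on both arrays. Above the control by more than 2 spot errors were 4 (20%): Col15a1, Col26a1, Col6a1 and Col16a1. The same rule called 10.7% of all 14495 genes higher. Below the control were 2 (10%), Col1a1 and Col5a2, against 12.8% of all genes lower. No collagen gene was at least 2-fold apart, where 0.117% of all genes were. The collagen genes had a median log2 ratio of -0.10, against -0.01 over all genes, and 16 of 20 (80%) were below 0, against 52.1% of all genes. With centring on the spike-ins the median was 0.05 for the collagen genes and 0.15 for all genes.

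At the low dose, the count of collagen genes beyond 2 spot errors was 0 of 20 higher, against 4.27% of all 14621 genes, and 1 lower, Col17a1, against 4.56% of all genes. None was at least 2-fold apart, against 0.116% of all genes. The median log2 ratio was -0.01 for the collagen genes and 0.00 for all genes, with 11 of 20 (55%) below 0, against 49.6% of all genes. With centring on the spike-ins, where the median of all genes was 0.16 and that of the collagen genes 0.15, 8 collagen genes were higher by more than 2 spot errors and none lower. The direction of the low dose against the control is thus set by the scaling. The share of all genes called with this centring is not given, so the 8 cannot be read as particular to the collagen genes.

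The direct comparison of the doses left out the control array and did not depend on the spike-ins, whose mean was 0.00. Of 20 collagen genes, 1 was higher at the high dose by more than 2 spot errors, Col15a1 at 0.44 ± 0.07, against 9.61% of all 14480 genes. Lower were 3 (15%), Col1a1 at -0.22 ± 0.05, Col6a2 at -0.14 ± 0.06 and Col1a2 at -0.11 ± 0.05, against 10.6% of all genes. None was at least 2-fold apart, against 0.076% of all genes. The median log2 ratio was -0.09 for the collagen genes and -0.01 for all genes, and 14 of 20 (70%) were below 0, against 53.0% of all genes. Of these, 5 were the measured fibrillar genes, although Col5a2 stood at 0.04 with its brightest probe. Under normexp none of the 3 lower genes was beyond 2 spot errors, and under quantile normalization Col6a2 was not, at -0.11 with a spot error of 0.06.

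**Figure D4:**
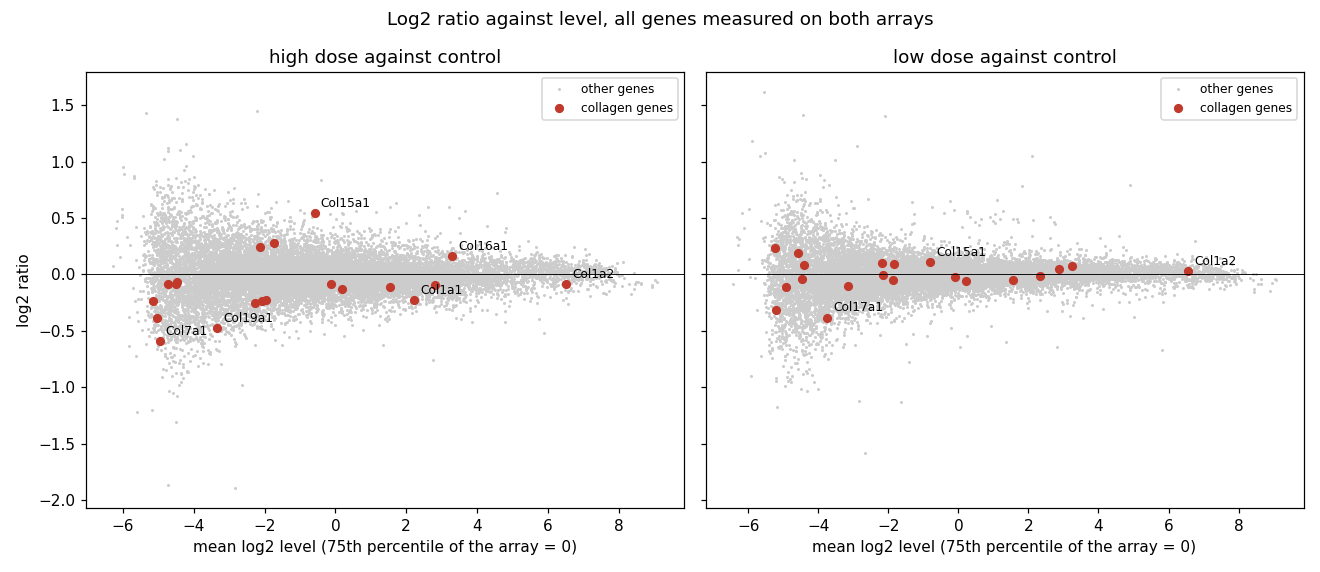
Log2 ratio against mean log2 level (the 75th percentile of each array is 0) of all genes measured on both arrays, for the high dose against control and the low dose against control; collagen genes are the large points. The spread of the grey points widens toward low levels, where Col7a1 and Col19a1 lie, and Col15a1 lies near the upper edge of the points at its level at the high dose.

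Genes that act on collagen after its synthesis were set beside the chains. Among 20 modification and folding genes, 19 were measured at the high dose, 4 higher and 4 lower by more than 2 spot errors, with a median log2 ratio of 0.02. Over all genes 10.7% were higher and 12.8% lower at the high dose, and 4.27% higher and 4.56% lower at the low dose, which holds for each list that follows. The prolyl 4-hydroxylase subunit genes P4ha1 and P4ha2 stood at 0.40 ± 0.06 and 0.25 ± 0.06, and P3h2, a prolyl 3-hydroxylase gene, at 0.34 ± 0.07. P4ha3, a dim subunit gene, stood at -0.90 ± 0.35. The brighter genes Colgalt1 and Mia3 were also lower, at -0.13 ± 0.05 and -0.07 ± 0.03, and turned to 0.02 and 0.08 with centring on the spike-ins. P3h1 was lower at -0.19 ± 0.07 (-0.04 with that centring), and Plod2 was higher at 0.16 ± 0.06. At the low dose 3 were higher and 1 lower, with P4ha1 at 0.20 ± 0.07, P3h2 at 0.19 ± 0.07, P4ha2 at 0.12 ± 0.06 and P4ha3 at -0.83 ± 0.35. Of 10 measured genes for propeptide cleavage and crosslinking, 1 was higher at the high dose, the lysyl oxidase-like gene Loxl2 at 0.25 ± 0.06, and 1 lower, Loxl4 at -0.31 ± 0.09, and none was beyond 2 spot errors at the low dose.

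The 6 measured collagen receptor genes held 2 that were higher at the high dose, the discoidin receptor gene Ddr2 at 0.11 ± 0.04 and the integrin subunit gene Itgb1 at 0.07 ± 0.03, and 1 lower, the collagen uptake receptor gene Mrc2 at -0.35 ± 0.09. At the low dose Ddr2 stood at -0.10 ± 0.04 and Itgb1 at -0.09 ± 0.03. Of 2 measured protease genes, Mmp14 was lower at the high dose, at -0.12 ± 0.03, while the collagenase genes Mmp8 and Mmp13 were not well above background. Of 6 measured genes for proteins associated with fibrils, Sparc and the small proteoglycan gene Fmod were lower at the high dose, each at -0.17 ± 0.05, and none was beyond 2 spot errors at the low dose. With centring on the spike-ins Mmp14 turned to 0.04 at the high dose, and Ddr2 and Itgb1 turned to 0.06 and 0.07 at the low dose, while Sparc and Fmod stood at -0.02 at the high dose.

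The labelled cell type was checked against markers. Of 8 osteoblast genes, 6 were well above background on every array, namely Runx2, Sp7, Alpl, Ibsp, Spp1 and Bglap, while Dmp1 and Phex were not on any. Some markers of other cells were present too: 4 of 8 chondrocyte, 2 of 5 endothelial, 3 of 5 macrophage, 1 of 5 adipocyte and 3 of 4 skeletal muscle genes were well above background on each array. Of all gene names, 55.1% were well above background on all 3 arrays. Beside that share, none of these counts, that of the osteoblast genes included, identifies a cell type. Among the markers present, Myog, Csf1r and Bglap were dim, at 31.7, 43.7 and 43.2 on the control array. The genes not well above background on any array were Sox5, Acan, Matn1 and Matn3 of the chondrocyte list, Kdr, Tek and Tie1 of the endothelial list, Ptprc and Adgre1 of the macrophage list, Adipoq, Plin1, Lpl and Pparg of the adipocyte list, and Myod1 of the muscle list. Those present included Sox9, Pecam1, Cdh5, Csf1r, Cd68, Fabp4, Myog and the muscle creatine kinase gene Ckm, whose signal was 1883 on the control array, 1862 under the low dose and 1768 under the high dose. The summed signal of the chondrocyte genes was 956 on the control array, 1140.2 under the low dose and 987 under the high dose, and that of the endothelial genes was 197, 195 and 234 in that order. The summed signals of the osteoblast genes were 19586, 20458 and 21333 in that order, those of the macrophage genes 369, 353 and 347, those of the adipocyte genes 132, 147 and 137, and those of the muscle genes 1982, 1971 and 1881. These sums are of signals before scaling, and bright genes weigh most in them. The osteoblast, chondrocyte and macrophage sums exceed those of 1 mean signal per gene. A gene with several probes may thus count more than once. The osteoblast genes did not rise together. At the high dose the log2 ratios of Runx2 (-0.16), Sp7 (-0.20), Alpl (-0.13) and Ibsp (-0.02) were below 0, and those of Spp1 (0.26) and Bglap (0.23) above 0. For the high dose against control, the markers beyond 2 spot errors were Spp1 at 0.26 ± 0.02, Pecam1 at 0.42 ± 0.15 and Sox6 at 0.23 ± 0.09 above 0, and Alpl at -0.13 ± 0.06, Hapln1 at -0.34 ± 0.14 and Itgam at -0.31 ± 0.11 below 0. Alpl turned to 0.02 with centring on the spike-ins. For the low dose they were Sox9 at 0.41 ± 0.09 and Cd68 at 0.39 ± 0.18. Their part in the collagen differences was not tested.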

How the data were processed

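Total RNA (50 ng per labelling) was hybridised to 3 one-colour Agilent rat arrays, 1 per group, with groups taken from the treatment labels. Per the file headers, the deposited intensity values come from Feature Extraction 10.7.3.1 with protocol GE1_107_Sep09 on design 028279 (rn4), background-subtracted and detrended within the array and not normalized between arrays. The flags for background, saturation and outliers were deposited by the authors in the same files. The series table that the authors deposited holds a ratio, equal to the processed signal over 1 constant per array (823 for the control, 849 for the low dose, 823 for the high dose). How it was made is not stated by the sources at hand. Its scale is linear, it is not centred by gene, and its column medians were 0.0737, 0.0731 and 0.0734. It served as an alternative.

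Each value was the log2 processed signal less that of the array's 75th percentile over 58717 non-control spots. Spots flagged as outliers (426, 368 and 352 from control to high dose, none of a collagen gene) were left out unless all spots of a probe were. Spots were averaged per probe. A probe needed 50% or more of its spots flagged well above background to count as such. Gene ratios averaged the probes that passed on both arrays. The spot error pooled the SD between repeat spots in 20 bins of level, over probes with all spots well above background, and was tested on simulated data. A gene was called beyond 2 spot errors, or at least 2-fold apart. All genes went through the same steps. The RefSeq gene table (GRCr8) matched 31 of 58 collagen probes by accession and changed no name. Genes printed in full were a fixed list of main chains plus every member beyond 2 spot errors, and the other measured members are given too, named after their values were seen. Of each list of further genes, up to 4 beyond 2 spot errors are named, except that all modification and folding genes called at the high dose are. The members and lists were chosen with earlier results of these data known. Alternatives were normexp (limma 3.58.1, offset 50), quantile normalization, spike-in centring, the series table, other filters, outlier spots kept, the brightest probe, another pooling of the spot error and updated symbols. Python 3.11.15 and R 4.3.3 were used. One probe sequence is not reported here.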

Additional observations from a re-analysis of the deposited data

How the results depend on the processing

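No paired analysis was possible because each group holds 1 array. Dim probes limit the precision further. The count of collagen genes well above background on all arrays, 19, was 17 where all spots had to pass, and without a filter on dim probes it has no value. With centring on the spike-ins the median log2 ratio turned to 0.0499 for the high dose and 0.15 for the low dose against control, the high dose count of lower genes was 0, and at the low dose 8 were higher and 0 lower. Shares of all genes called are not given for the alternatives, here or below. Under normexp 1 gene was higher and 0 lower at the high dose, 0 lower at the low dose, and 0 lower for high against low dose. Without a filter on dim probes the medians were -0.00065 for the high dose and 0.0314 for the low dose against control and 0.0918 for high against low dose. The medians over all genes without that filter were 0.0481, 0.0234 and 0.0607 in that order. In that setting 1 gene was 2-fold apart and 3 were lower at the low dose against control, and 3 were higher for high against low dose. The low dose median, close to 0, was 0.0056 in the series table and 0.0139 with the brightest probe. In each of these 2 settings 1 gene was lower at the high dose. At the low dose 0 were lower with the brightest probe, with all spots well above background, and under the other spot error. Quantile normalization gave 2 genes higher for high against low dose. Single-gene ratios under the alternatives were followed for only some of the measured collagen genes, with at most 46 ratios per setting. Of these ratios, 327 of 366 moved by less than 1 spot error, and 26 turned sign, 14 of them with centring on the spike-ins. Col4a6, Col9a1 and Col19a1 were not followed here, so the 14 leave out their sign turns with that centring, which are given further above. Of ratios beyond 2 spot errors, 2 turned sign, both at the high dose: Col5a2 to 0.0392 with centring on the spike-ins and Col26a1 to -0.30 without a filter on dim probes. The causes were not tested beyond what each setting changes by its construction.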

Other observations

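Probes for further collagen chains carry an accession in place of a gene name on this array and were not counted among the collagen genes. A probe described as type IV alpha 5 had spots of 5.30 and 4.66 on the control array, 5.76 and 4.99 at the low dose, and 6.26 and 5.40 at the high dose. The 2 probes described as type VI alpha 5 read 4.97 and 8.07 on the control array, 5.25 and 12.0 at the low dose, and 6.18 and 5.55 at the high dose. A probe described as similar to type VI alpha 3 had spots of 4.44 and 4.56 on the control array, 8.15 and 4.87 at the low dose, and 5.12 on both at the high dose. None of these spots was well above background.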
